A study of Mus musculus with 4 samples.

Results

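Expression of 10 genes that mark endothelial cells was measured in differentiating embryonic stem cells (ESCs) of both Taf4a genotypes. The genes were taken as a named set of endothelial products, with earlier results of these data known, and they are 10 of the 24637 genes with a read count in these data: the receptor tyrosine kinases Kdr, Flt1, Tek and Tie1, the adhesion molecules Cdh5, Pecam1 and Esam, the surface sialomucin Emcn, the co-receptor Eng and the transcription factor Sox18. All 10 were detected in every library and all passed the filter on low values. The samples were 2 libraries labelled WT (genotype Taf4+/+) and 2 labelled Taf4a-/-, each from polyadenylated RNA of mouse ESCs driven towards the cardiac lineage, first for 5 days as embryoid bodies in medium with 20% fetal calf serum and then for 9 more days on gelatin-coated plates. Taf4a encodes the TFIID subunit Taf4, and the mutant lines carried a null allele lacking internal exons, whereas lines of both genotypes were derived from blastocysts of crosses between Taf4a+/- mice and were kept on feeder fibroblasts before differentiation. By the study's methods the replicates came from 2 independent ESC lines per genotype, but the labels do not say which line gave which library, so that a difference between libraries of a genotype may be one between lines, between cultures or both, and p-values measure the spread between these samples.

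Endothelial cells line the blood vessels, and in ESC cultures they arise from mesoderm in response to vascular endothelial growth factor (VEGF). Kdr (VEGFR2) is the main signalling receptor for VEGF and is already present on mesodermal progenitors, while Flt1 (VEGFR1) binds VEGF with higher affinity and, in its soluble form, withholds it from Kdr. Tek (Tie2) is the receptor for the angiopoietins and Tie1 its co-receptor. Cdh5 (VE-cadherin) and Esam form the endothelial cell junctions. Pecam1 (CD31) is also found there, and on platelets, macrophages and undifferentiated ESCs. Eng (endoglin) is a co-receptor for TGF-beta and BMP ligands, Emcn (endomucin) is a glycoprotein of venous, capillary and endocardial endothelium, and Sox18 is one of the SOXF transcription factors that act early in vessel formation. The RNA came from whole cultures, in which fewer cells of a type and less RNA per cell cannot be told apart.

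In the mm9 (NCBIM37) annotation all 10 are protein-coding genes, and values refer to all of their exons together. Kdr (ENSMUSG00000062960, chr5:76328852-76374483) and Flt1 (ENSMUSG00000029648, chr5:148373180-148537587) lie on the minus strand of chromosome 5. Tek (ENSMUSG00000006386, chr4:94405980-94541667, plus strand) and Tie1 (ENSMUSG00000033191, chr4:118143796-118162666, minus strand) share chromosome 4. Eng (ENSMUSG00000026814, chr2:32502115-32538189, plus strand) and Sox18 (ENSMUSG00000046470, chr2:181404541-181406345, minus strand) are on chromosome 2. Cdh5 (ENSMUSG00000031871) is at chr8:106625525-106668402 on the plus strand, Pecam1 (ENSMUSG00000020717) at chr11:106515531-106611942 on the minus strand, Esam (ENSMUSG00000001946) at chr9:37335663-37345904 on the plus strand and Emcn (ENSMUSG00000054690) at chr3:137004031-137095149 on the plus strand. Eng was the only one of the 10 whose exons overlap those of another gene: it shares 124 of 3870 exonic bases with Ak1 on the same strand and 61 with Fpgs on the other. The library kit does not mark strand.

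The DNA before the transcription start is shown for the genes on which the comparisons below turn: Tek, Emcn and Eng, whose values did not overlap between genotypes, Tie1, the partner of Tek, and Flt1, which alone varied in the opposite sense between libraries. RefSeq promoter windows were held for 6 of the 10 genes, namely these and Kdr, and Cdh5, Pecam1, Esam and Sox18 had none. Each sequence is the 250 bases before the start, 5′ to 3′ on the strand of the gene, in the GRCm38.p6 build, whose coordinates differ from those of mm9 above. The windows are chr4:94739039-94739288 (Tek, plus strand), chr3:137340828-137341077 (Emcn, plus strand), chr2:32646345-32646594 (Eng, plus strand), chr4:118489850-118490099 (Tie1, minus strand) and chr5:147726012-147726261 (Flt1, minus strand). Capitals mark GGAAG or its complement CTTCC, a longer form of the core recognised by ETS factors. They also mark AACAAT or its complement ATTGTT, a core recognised by SOX factors. Shorter forms of the ETS core were not searched, and the marked motifs do not overlap each other.
Tek: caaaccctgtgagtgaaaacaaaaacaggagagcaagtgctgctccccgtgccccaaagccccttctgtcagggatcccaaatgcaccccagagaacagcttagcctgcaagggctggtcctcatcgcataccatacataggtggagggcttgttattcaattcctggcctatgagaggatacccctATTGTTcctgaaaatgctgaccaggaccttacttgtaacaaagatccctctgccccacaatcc
Emcn: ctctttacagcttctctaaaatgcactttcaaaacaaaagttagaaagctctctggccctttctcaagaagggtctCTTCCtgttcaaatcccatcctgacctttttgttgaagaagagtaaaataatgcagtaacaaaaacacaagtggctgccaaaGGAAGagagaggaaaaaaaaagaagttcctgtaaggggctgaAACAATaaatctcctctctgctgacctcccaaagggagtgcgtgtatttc
Eng: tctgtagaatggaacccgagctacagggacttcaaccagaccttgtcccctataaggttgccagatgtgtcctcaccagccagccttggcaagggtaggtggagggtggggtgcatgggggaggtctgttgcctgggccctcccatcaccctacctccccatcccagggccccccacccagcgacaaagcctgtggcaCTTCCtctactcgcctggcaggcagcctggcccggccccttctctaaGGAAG
Tie1: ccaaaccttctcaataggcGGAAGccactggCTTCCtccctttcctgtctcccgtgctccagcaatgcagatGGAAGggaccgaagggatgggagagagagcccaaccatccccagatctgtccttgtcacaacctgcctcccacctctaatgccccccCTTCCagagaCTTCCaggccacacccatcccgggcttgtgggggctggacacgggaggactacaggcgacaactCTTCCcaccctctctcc
Flt1: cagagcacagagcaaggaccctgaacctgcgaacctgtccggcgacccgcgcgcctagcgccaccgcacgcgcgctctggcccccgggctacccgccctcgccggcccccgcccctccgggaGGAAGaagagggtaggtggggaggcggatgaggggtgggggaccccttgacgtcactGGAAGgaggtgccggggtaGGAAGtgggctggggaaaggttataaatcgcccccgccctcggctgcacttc
The Tie1 window held 6 matches to GGAAG on either strand, the Flt1 window 3, those of Emcn and Eng 2 each and that of Kdr 1, whereas the Tek window held none. AACAAT was found once in Tek and once in Emcn and in none of the other 4 windows. GGAAG occurs in 64.1% of the 32851 promoter windows of the same length, and AACAAT in 9.42%, so that most promoters hold the first and few the second. A match describes the letters of the window and is not a measured site.

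Each library held between 21732746 and 27733034 reads on genes, and values are these counts divided by the size factor of the library (normalized counts). Differences between genotypes are Taf4a-/- minus WT on log2(normalized count + 1), tested with limma over 16926 genes whose mean was 10 or more, with Benjamini-Hochberg adjustment over all of them. Taf4a itself had 889 and 678 normalized counts in WT 1 and WT 2 and 1722 and 1799 in the libraries labelled Taf4a-/- 1 and 2. Its log2 difference was 1.18 (SE 0.16, adjusted p = 0.00569 from limma). The count is of the whole gene and does not separate the deleted exons, so that it cannot check the labels. Genotypes are named below by the labels of the libraries. The culture labelled as cardiac cells held RNA of all 10 endothelial genes in both genotypes. None of the 10 passed the test at an adjusted p under 0.05 in either direction, where 28.6% of all genes tested did, 11.3% higher and 17.3% lower. At an unadjusted p under 0.05, Emcn, Eng and Tek were lower in the libraries labelled Taf4a-/-, 3 of 10 beside 23.7% of all genes lower and 42.5% in either direction, and limma's voom on the recovered reads likewise called 0 of the 10. The median log2 difference of the 10 genes was -0.27, beside -0.01 for all genes tested, and ran from -0.65 without Taf4a-/- 2 to 0.09 without Taf4a-/- 1, so that its sign turned on single libraries.

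Kdr, the VEGF receptor that signals, was the most abundant of the 10 per length, with a mean of 516 normalized counts per kilobase of exon over the 4 libraries. It had 4538 and 3775 normalized counts in WT 1 and WT 2, and 2726 and 3983 in the libraries labelled Taf4a-/- 1 and 2. The genotypes overlapped, since the second Taf4a-/- library lay between the WT libraries. The log2 difference was -0.33 (SE 0.20, 95% interval -0.82 to 0.17, adjusted p = 0.264 from limma). Flt1, the receptor that withholds VEGF from Kdr, had 3940 and 6508 normalized counts in WT 1 and WT 2, and 4897 and 3180 in the libraries labelled Taf4a-/- 1 and 2. WT 2 was the highest and Taf4a-/- 2 the lowest, with the other libraries between them. Its log2 difference of -0.36 (SE 0.29, interval -1.07 to 0.35) did not pass the test (adjusted p = 0.386 from limma). Since the libraries high in Kdr were low in Flt1, the ratio of Flt1 to Kdr per kilobase was 0.546 and 1.08 in WT 1 and 2 and 1.13 and 0.502 in Taf4a-/- 1 and 2. The ratio therefore varied within each genotype, and the genotypes overlapped.

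Tek, the angiopoietin receptor, had 1440 and 696 normalized counts in WT 1 and WT 2, and 282 and 628 in the libraries labelled Taf4a-/- 1 and 2. Both WT libraries were above both Taf4a-/- libraries, but WT 2 and Taf4a-/- 2 lay close together. The WT mean was 1068 ± 526 (SD, n = 2) and the Taf4a-/- mean 455 ± 245 (SD, n = 2), a 2.35-fold lower level whose log2 difference of -1.25 (SE 0.46) did not pass the test after adjustment (adjusted p = 0.0916 from limma). Tie1, which modulates Tek signalling, had 976 and 424 normalized counts in WT 1 and WT 2 and 466 and 1150 in the libraries labelled Taf4a-/- 1 and 2. Here the genotypes overlapped fully, the highest and the lowest value being those of Taf4a-/- 2 and WT 2. The log2 difference of Tie1 was 0.19 (SE 0.52, interval -1.08 to 1.45, adjusted p = 0.811 from limma). In the promoter windows printed above, GGAAG had 6 matches in Tie1 and none in Tek. Shorter ETS cores were not searched, so that these counts do not compare the ETS sites of the pair.

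Cdh5, the cadherin that defines endothelial junctions, had 2167 and 1195 normalized counts in WT 1 and WT 2, and 992 and 2226 in the libraries labelled Taf4a-/- 1 and 2. One library of each genotype was high and the other low, so that the genotypes overlapped. Its log2 difference was -0.11 (SE 0.43, interval -1.15 to 0.92, adjusted p = 0.859 from limma). Esam, an immunoglobulin-type adhesion molecule of the same junctions, had 405 and 223 normalized counts in WT 1 and WT 2 and 183 and 372 in the libraries labelled Taf4a-/- 1 and 2, and a log2 difference of -0.20 (SE 0.42, interval -1.22 to 0.81, adjusted p = 0.737 from limma). The genotypes again overlapped, and the sign of the Esam difference was positive, at 0.04, with quantile normalization. Pecam1 had 1702 and 1014 normalized counts in WT 1 and WT 2 and 1260 and 1554 in the libraries labelled Taf4a-/- 1 and 2. Both Taf4a-/- values lay within the range of the WT libraries. The log2 difference of Pecam1 was 0.09 (SE 0.26, interval -0.53 to 0.71, adjusted p = 0.812 from limma).

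Emcn, the sialomucin, showed the lowest values of the 10 genes in the Taf4a-/- libraries, with 303 and 220 normalized counts in WT 1 and WT 2 and 47.0 and 148 in the libraries labelled Taf4a-/- 1 and 2. Both WT libraries were above both others, and the value of Taf4a-/- 1 rested on 48 reads (95% exact Poisson interval 35.4 to 63.6, which covers counting error only). The level was 2.68-fold lower by the means, 262 ± 58.7 against 97.6 ± 71.6 (SD, n = 2 each), and the log2 difference was -1.62 (SE 0.53, adjusted p = 0.0658 from limma). Eng, the TGF-beta and BMP co-receptor, had 985 and 825 normalized counts in WT 1 and WT 2 and 386 and 693 in the libraries labelled Taf4a-/- 1 and 2. The groups did not overlap, and the mean was 1.68-fold lower in the Taf4a-/- libraries. The log2 difference of Eng was -0.80 (SE 0.28, adjusted p = 0.0813 from limma). Sox18, the transcription factor, had 363 and 119 normalized counts in WT 1 and WT 2 and 159 and 338 in the libraries labelled Taf4a-/- 1 and 2. The genotypes overlapped, and the interval of its log2 difference of 0.15 (SE 0.58, adjusted p = 0.863 from limma) ran from -1.26 to 1.57, which leaves room for more than a 2-fold change either way.

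**Figure D1:**
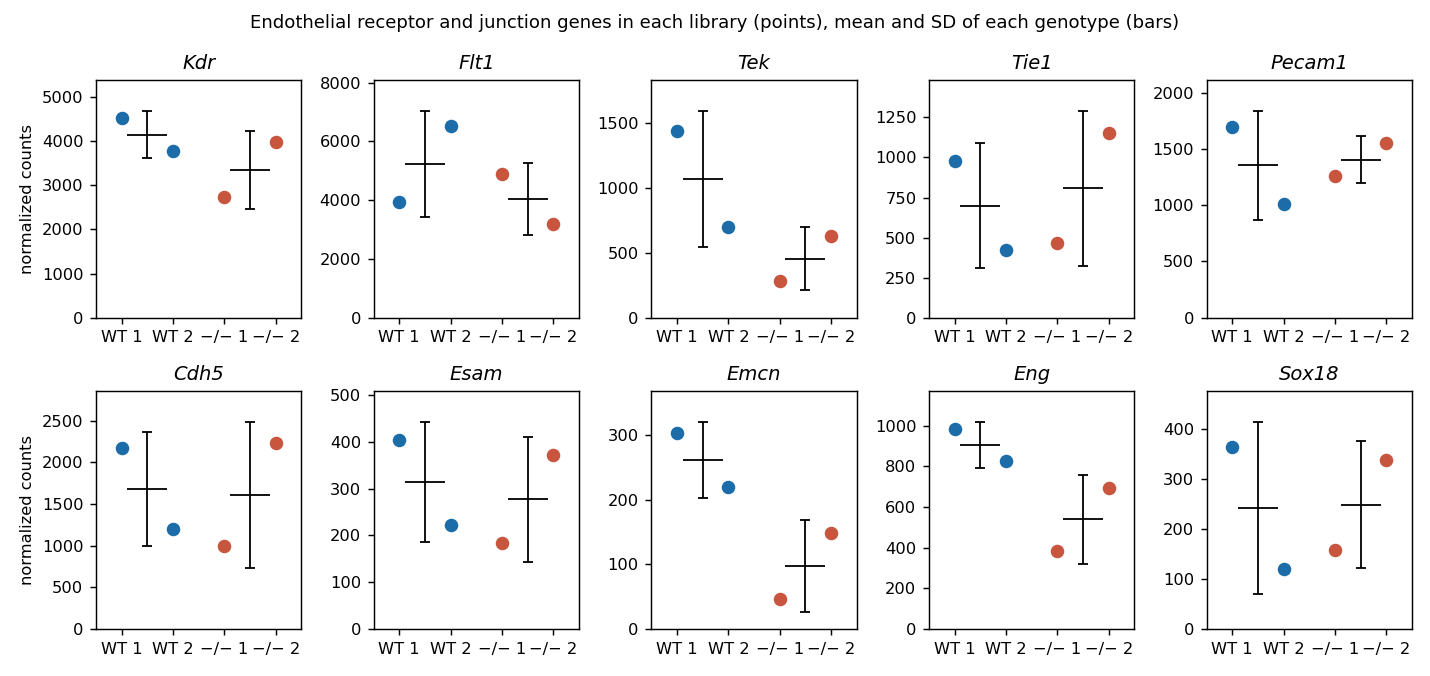
Normalized counts of the 10 endothelial genes (y axis, from 0, a scale of its own for each gene) in the libraries WT 1, WT 2, Taf4a-/- 1 and Taf4a-/- 2 (points), with the mean and SD of each genotype (n = 2) as bars. Emcn, Eng and Tek are the genes whose WT points both lie above the Taf4a-/- points, as for Emcn with 303 and 220 against 47.0 and 148.

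Emcn, Eng and Tek were thus the genes of the 10 whose libraries did not overlap, all with WT above; among all genes tested, 36.6% had both WT libraries above both Taf4a-/- libraries and 34.5% had the reverse. Their calls turned on 1 library. Without Taf4a-/- 2, all 3 passed the test, with log2 differences of -2.44 for Emcn, -1.22 for Eng and -1.82 for Tek (adjusted p from limma 0.00141, 0.00806 and 0.00605). Over the fits that left out each library in turn, the adjusted p from limma ran from 0.00141 to 0.235 for Emcn, from 0.00806 to 0.353 for Eng and from 0.00605 to 0.343 for Tek. The difference of each was negative in all of these fits. With all 4 libraries and another pseudocount, filter, scaling, variance model, block or test, the lowest adjusted p from limma was 0.0536 for Emcn, 0.0770 for Eng and 0.0863 for Tek.

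**Figure D2:**
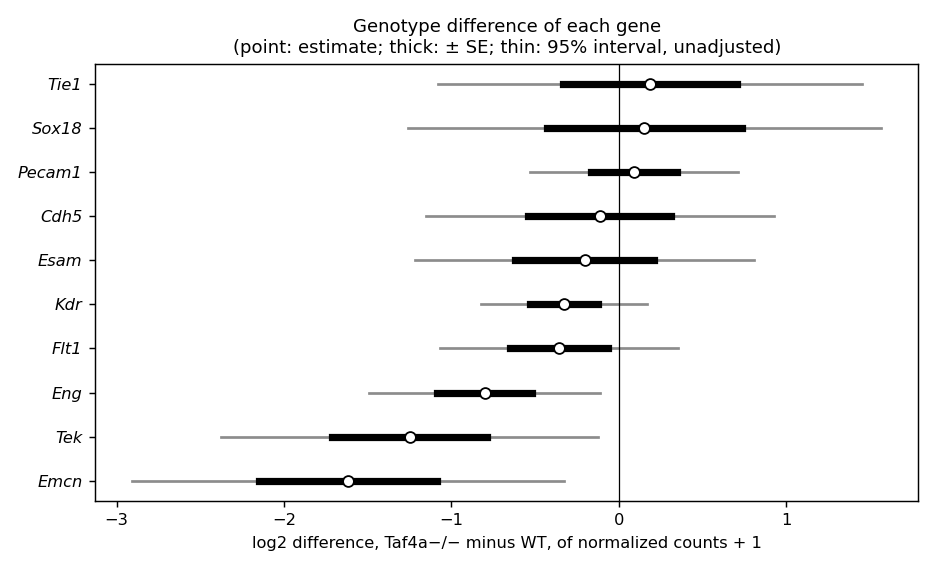
Log2 difference of each of the 10 genes, Taf4a-/- minus WT, of normalized counts + 1 (x axis), as the estimate (point), its SE (thick line) and its unadjusted 95% interval (thin line) from limma. The intervals of Emcn, Eng and Tek lie below 0, and those of the other 7 genes include it.

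The 10 genes varied widely between the libraries of a genotype. In 9 of the 10 genes WT 1 was above WT 2 and Taf4a-/- 2 was above Taf4a-/- 1, a pattern held by 25.6% of all genes tested, and Flt1 had the reverse in both genotypes, as did 26.6% of all genes. This pattern was noticed after the values were seen, and with 1 library on each side it could not be tested. The absolute difference between WT libraries had a median of 0.80 on the log2 scale over the 10 genes, beside 0.26 over all genes tested, and that between Taf4a-/- libraries a median of 1.05, beside 0.16. The largest fold between libraries of one genotype was the 3.15-fold of Emcn between Taf4a-/- 2 and 1, and Sox18 followed with 3.04-fold between WT 1 and 2. Kdr and Eng were the least variable in WT, with 1.20-fold and 1.19-fold, and Pecam1 in the Taf4a-/- libraries, with 1.23-fold.

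The same order of libraries was common in some other lists and not in others, inside and outside the endothelium. It was held by 22 of 33 other endothelial surface and secreted genes (1 reversed), 16 of 23 endothelial transcription factors (4 reversed), 8 of 11 venous and lymphatic genes (1 reversed) and 9 of 15 arterial and Notch genes (1 reversed). Junction partners had it in 7 of 20 genes (5 reversed), endocardial genes in 4 of 11 (3 reversed) and ligands and partner receptors in 10 of 20 (1 reversed). Some lists overlap in their genes. Among genes of other cells it was held by 11 of 14 megakaryocyte and platelet genes (0 reversed), 9 of 15 pluripotency genes (1 reversed), 4 of 13 mural genes (4 reversed) and 1 of 18 macrophage genes (2 reversed). The median difference of WT 1 minus WT 2 was 0.80 for the pluripotency genes, as for the 10 endothelial genes, and -0.45 for the macrophage genes. That of Taf4a-/- 2 minus Taf4a-/- 1 was smaller for the pluripotency genes, 0.23 beside 1.05 for the 10 endothelial genes. The order is therefore not particular to endothelial genes. Most macrophage genes were within a few reads of 0 in the Taf4a-/- libraries, where their order is not read.

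**Figure D3:**
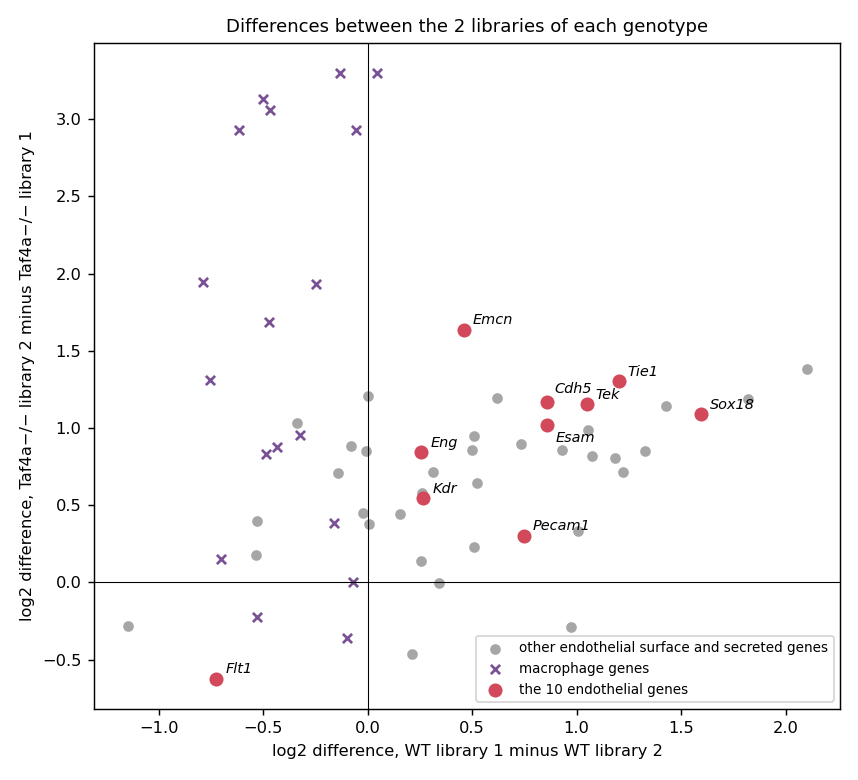
Log2 difference between the WT libraries (x axis, 1 minus 2) and between the Taf4a-/- libraries (y axis, 2 minus 1) of normalized counts + 1, for the 10 endothelial genes (red), the other endothelial surface and secreted genes (grey) and macrophage genes (crosses). The upper right corner holds 9 of the 10 genes, and Flt1 lies in the lower left.

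Relative to Cdh5 in the same library, the ratios of Tek, Emcn, Eng, Esam and Tie1 did not overlap between genotypes. The closest values of the genotypes lay near each other for Esam (0.187 and 0.185) and for Tie1 (0.450 and 0.470). The share of all genes whose ratio to Cdh5 did not overlap was not computed. For levels, 36.6% of all genes tested had both WT libraries above and 34.5% had the reverse, so that a lack of overlap is common. These ratios are of normalized counts, were chosen after the values were seen and are given with no test. Esam followed Cdh5 closely, with a ratio of 0.187 and 0.187 in WT 1 and 2 and 0.185 and 0.167 in Taf4a-/- 1 and 2, although Cdh5 itself differed 1.81-fold between the WT libraries and 2.25-fold between the others. Tek did not, and its ratio to Cdh5 was 0.664 and 0.583 in the WT libraries against 0.284 and 0.282 in the Taf4a-/- libraries, a 2.20-fold difference of the means. Emcn had ratios of 0.140 and 0.184 against 0.0474 and 0.0666, a 2.85-fold difference. Within each genotype these ratios of Tek and Emcn were closer together than their levels. The reverse held in WT for Eng, Kdr and Flt1, and in the Taf4a-/- libraries for Kdr, Flt1 and Pecam1. The Flt1 ratios, for example, were 1.82 and 5.45 in WT 1 and 2. Eng had ratios of 0.455 and 0.690 against 0.389 and 0.311. For Tie1 the order was the other way, with 0.450 and 0.355 in WT against 0.470 and 0.517 in the Taf4a-/- libraries. The ratio of Tek to Tie1, the receptor to its partner, was 1.48 and 1.64 in WT 1 and 2 and 0.605 and 0.546 in Taf4a-/- 1 and 2, a 2.71-fold lower mean. The ratios of Kdr, Flt1, Pecam1 and Sox18 to Cdh5 overlapped between genotypes.

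**Figure D4:**
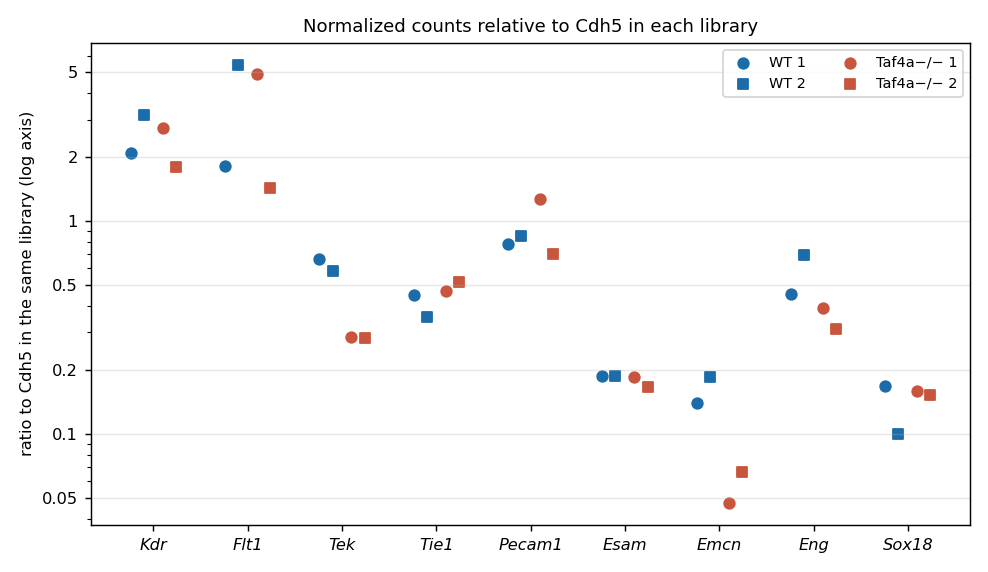
Normalized counts of 9 endothelial genes divided by those of Cdh5 in the same library (y axis, log scale), for WT (blue) and Taf4a-/- (red) libraries 1 (circles) and 2 (squares). The Tek points lie at 0.664 and 0.583 in WT and at 0.284 and 0.282 in Taf4a-/-, whereas the 4 Esam points lie between 0.167 and 0.187.

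Per kilobase of exon, the order of the mean levels over the 4 libraries was Kdr (516 normalized counts), Cdh5 (413), Flt1 (400), Pecam1 (320), Eng (187), Tek (162), Tie1 (153), Sox18 (151), Esam (103) and Emcn (33.2). Neighbours in this order overlapped across libraries, except Esam and Emcn. Cdh5 ran from 249 to 559 per kilobase, Flt1 from 275 to 562 and Pecam1 from 235 to 394. Tek ran from 59.8 to 306, and Tie1 from 86.2 to 234. The highest library of Emcn, at 56.1 per kilobase, was below the lowest of Esam, at 63.8.

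The nearest profile to each gene was sought among the vascular lists by the Euclidean distance between log2 values centred over the 4 libraries. Cdh5 and Esam were nearest to each other, at 0.138 on this scale, and of the 16925 other genes tested 1 was nearer to Cdh5 and 0 to Esam. Tie1 was nearest to Dll4, the Notch ligand of arterial and tip cells, at 0.231, and Sox18 to Aplnr, the apelin receptor, at 0.254, with 2 and 1 tested genes nearer. Tek was nearest to Icam2 (0.269), an adhesion molecule of endothelium and platelets, and Eng to Eltd1 (0.149), with 2 and 7 genes nearer. Kdr, Pecam1 and Flt1 were nearest to the ETS factor Elk3 (0.209), the receptor Notch1 (0.167) and the junctional adhesion molecule F11r (0.197), with 55, 30 and 26 genes nearer. Emcn was nearest to Lyl1, a transcription factor of blood and endothelium, at 0.464, with 12 genes nearer. With 4 points to a profile, these distances are a description.

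Of 20 ligands and partner receptors of these proteins, 7 fell and 1 rose in the Taf4a-/- libraries (median log2 difference -0.58), or 35.0% lower and 5.0% higher beside 17.3% and 11.3% of all genes tested. Angpt1, the main agonist of Tek, had 1145 and 849 normalized counts in WT 1 and WT 2 and 263 and 357 in Taf4a-/- 1 and 2, a log2 difference of -1.68 (SE 0.22, adjusted p = 0.00523 from limma). It passed the test also in each fit without 1 library. Figf, which encodes the ligand VEGF-D, had a log2 difference of -2.76 (adjusted p = 0.0136) and Tgfbr2, the type II TGF-beta receptor, one of -1.53 (adjusted p = 0.0056, both from limma). Bmp10, a ligand of the receptor complex of which Eng is part, had 68.4 and 16.6 normalized counts in WT and 0 and 2.21 in the Taf4a-/- libraries, which is at least 13.6-fold lower against a floor of 3 reads per library, or at least 5.32-fold lower from WT 2 alone. Tgfb1 (-0.69), Pgf (-1.01) and Vegfa were the others that fell, and each of these 3 lost its call in at least 2 of the fits without 1 library. Vegfa, the ligand of Kdr and Flt1, had a log2 difference of -0.62 (adjusted p = 0.0463 from limma). Svep1, a matrix protein that binds Tie1, rose by 0.91 (adjusted p = 0.00919 from limma). Among those that did not pass were the VEGF co-receptors Nrp1 (0.25, adjusted p = 0.24 from limma) and Nrp2 (-0.12, adjusted p = 0.676) and the BMP receptor Bmpr2 (-0.27, adjusted p = 0.117). Grb10, an adaptor protein, had 4966 normalized counts in WT 2 and 42811 to 46134 in the other libraries, so that WT 2 alone stood apart. Without Taf4a-/- 1 the count of lower genes was 4, and without WT 1 that of higher genes was 2.

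Of 20 partner genes of the junctions, 3 rose and 1 fell (median log2 difference 0.30). Together these were 20.0% of the list, beside 28.6% of all genes tested. Jam2, a junctional adhesion molecule, was higher by 1.27 (adjusted p = 0.0168 from limma), Mllt4 (afadin) by 0.45 and Cdh2 (N-cadherin) by 0.39, and Ocln (occludin), a tight junction protein typical of epithelium, was lower, with a log2 difference of -1.42 and 1156 and 1473 against 586 and 405 normalized counts (adjusted p = 0.00821 from limma). The catenins of the Cdh5 complex did not pass, with log2 differences of 0.38 for Ctnnb1, 0.05 for Ctnnd1 and -0.04 for Jup (plakoglobin), which bind the tail of Cdh5, and 0.40 for Ctnna1, which binds Ctnnb1 and was called with voom, equal totals or quantile normalization. Nor did the scaffold protein Tjp1 (0.40). Cldn5, the endothelial claudin, had 437 and 162 normalized counts in WT and 341 and 752 in the Taf4a-/- libraries, with Taf4a-/- 2 the highest and WT 2 the lowest, and it did not pass the test (log2 difference 0.92, adjusted p = 0.243 from limma). All 4 calls were lost without some single library, that of Ocln without WT 2. Of higher genes there were 0 without Taf4a-/- 1, 1 without Taf4a-/- 2 or WT 2 and 5 without WT 1, and of lower genes 0 without WT 2 and 3 without WT 1.

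Of 23 endothelial transcription factors, 6 fell and 2 rose (median log2 difference -0.34), or 26.1% lower and 8.70% higher beside 17.3% and 11.3% of all genes. Klf2, induced by blood flow in vessels and also a pluripotency factor of ESCs, had 265 and 259 normalized counts in WT and 1292 and 1323 in the Taf4a-/- libraries, a log2 difference of 2.32 (SE 0.14, adjusted p = 0.000809 from limma). Bcl6b rose by 1.04 (adjusted p = 0.0369 from limma). Mef2c, a MADS-box factor of heart and vessels, was lower, with 1473 and 1462 against 407 and 584 normalized counts, a log2 difference of -1.59 (adjusted p = 0.00398 from limma), and so were Foxc2 (-1.15), Hhex (-0.95), Lmo2 (-0.88), Nr2f2 (-0.58) and Ets2 (-0.52). The SOXF genes related to Sox18 did not pass, with -0.35 for Sox7 and -0.34 for Sox17, nor did the ETS factors Erg (-0.42), Fli1 (0.33) and Ets1 (0.36). Of these 5, all but Ets1 were named after their values were seen. Epas1 (-0.83), Elk3 (-0.44) and Foxo1 (-0.31), among the most abundant that did not pass, were below 0 as well. The calls of Klf2 and Mef2c held in each fit without 1 library, and those of the other 6 were lost in at least 2 of the 4. Lower genes numbered 2 without Taf4a-/- 1, 3 without Taf4a-/- 2 or WT 1 and 4 without WT 2. Higher genes numbered 3 without Taf4a-/- 1, 1 without Taf4a-/- 2 and 1 without WT 2.

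Of the other endothelial surface and secreted genes, 33 were tested, of which 10 fell and 1 rose (median log2 difference -0.60), or 30.3% lower and 3.03% higher beside 17.3% and 11.3% of all genes. Gpihbp1, which holds lipoprotein lipase on capillaries, had a log2 difference of -2.24 (adjusted p = 0.0247 from limma), with 159 and 75.9 normalized counts in WT and 15.7 and 32.1 in the Taf4a-/- libraries. Also among the lower genes were Esm1, secreted by sprouting tip cells (-1.90, adjusted p = 0.0125), Cd34, a sialomucin of endothelium and blood progenitors (-1.54, adjusted p = 0.0219), and She, an adaptor protein (-1.37, adjusted p = 0.0407, all from limma). The other lower genes were Procr (-1.33), Gpr116 (-1.31), Rasgrp3 (-1.13), Ramp2 (-1.01), Vwf (-0.92) and Ecscr (-0.75). Gpr116 had 766 and 689 normalized counts in WT and 251 and 341 in the Taf4a-/- libraries (adjusted p = 0.00756 from limma). It kept its call under each alternative, whereas every other lower gene of the list lost its call under some. Tmem88, a membrane protein that restrains Wnt signalling, was the gene that rose, by 0.93 (adjusted p = 0.00878 from limma). The Cd34 difference ran from -2.06 to -1.03 with single libraries left out and was not called without WT 1 or WT 2, and that of She ran from -1.97 to -0.77 and was called only without Taf4a-/- 2. Esm1 was not called without WT 2, and Gpihbp1 was called only without Taf4a-/- 2. The most abundant genes that did not pass were Podxl (0.37), a sialomucin of vessels and kidney, Mcam (-0.53), Cd93 (-1.07) and Egfl7 (-0.08). The count of lower genes was 9 without Taf4a-/- 2, 5 without WT 1, 3 without Taf4a-/- 1 and 2 without WT 2. The count of higher genes was 2 without WT 1.

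**Figure D5:**
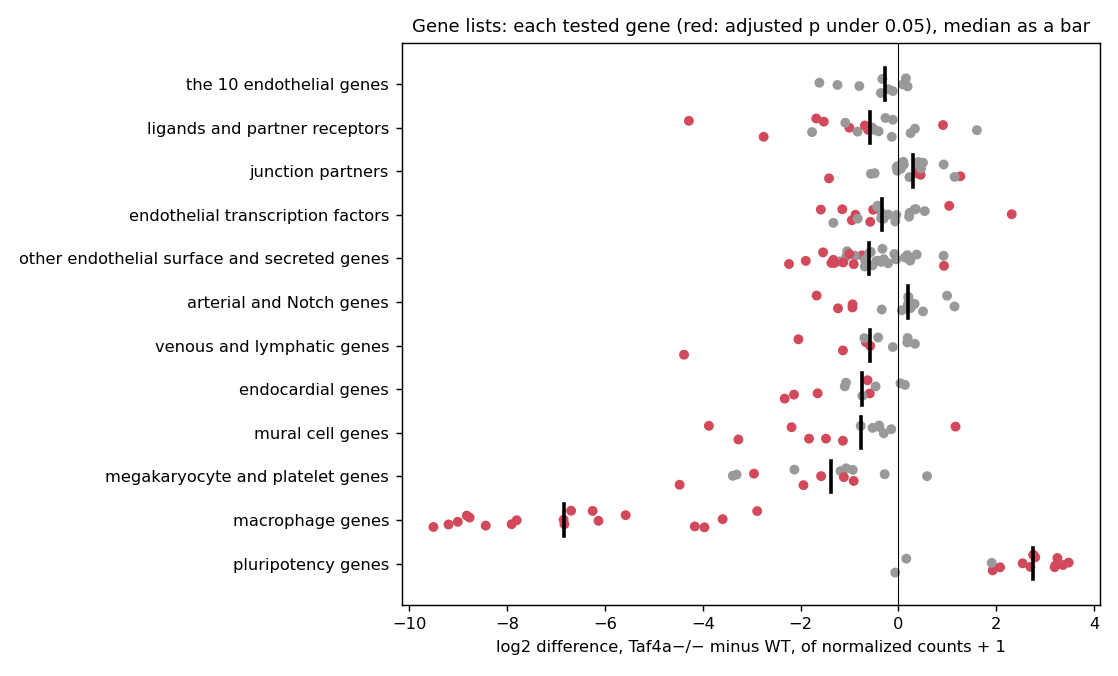
Log2 difference, Taf4a-/- minus WT, of normalized counts + 1 (x axis) for each tested gene of the 10 endothelial genes and of 11 lists (rows), with genes at an adjusted p under 0.05 in red and the median of each list as a bar. The 10 genes have their median at -0.27 and none in red, and the macrophage genes lie farthest to the left, with a median of -6.84.

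Arterial and venous genes were taken as further lists. Of 15 arterial and Notch pathway genes, 4 fell and 0 rose, although the median was 0.20, and the 26.7% lower stand beside 17.3% of all genes. These were the ligands Jag2 (-1.67) and Jag1 (-0.94) and the Notch targets Hey1 (-1.24) and Hey2 (-0.94). The most abundant that did not pass were Nrp1, the netrin receptor Unc5b (0.33), Efnb2 (0.20), an arterial ephrin, and Notch1 (0.07). Hey1 and Hey2 were not called without WT 2 or without Taf4a-/- 1. Of the 15, 1 was higher without WT 1, and the lower count was 2 without WT 2 or Taf4a-/- 1. Of 11 venous and lymphatic genes, 5 fell (median -0.58), or 45.5%. Lyve1, a hyaluronan receptor of lymphatic endothelium and of macrophages, had a log2 difference of -4.38 (adjusted p = 0.0104 from limma), and Stab1, a scavenger receptor of sinusoidal endothelium and macrophages, one of -2.05 (adjusted p = 0.0171 from limma). Reln (-1.14), Prox1 (-0.67) and Nr2f2 (-0.58) were the others. Each of the 5 calls was lost without some single library, that of Lyve1 without WT 2. Among those that did not pass were Nrp2, the venous ephrin receptor Ephb4 (0.19), Pdpn (-0.42) and Aplnr (0.18). The count was 3 without Taf4a-/- 1, 2 without WT 1 and 1 without WT 2, and 1 gene was higher without WT 1.

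Genes of other cells, some of which can carry these proteins, also moved with genotype. All 18 macrophage genes tested fell, by a median log2 difference of -6.84 (the same with the 2 genes under the floor at their bound), and their summed level was 17543 and 22629 normalized counts in WT 1 and 2 and 352 and 740 in Taf4a-/- 1 and 2. Cx3cr1, C1qb and Emr1, each at 1397 to 2067 normalized counts in WT, had 0 in Taf4a-/- 1 and 6.64 to 8.85 in Taf4a-/- 2. C1qa was listed at 0 in both Taf4a-/- libraries, and 7 of the 18 were at 0 in the first of them. Of 14 megakaryocyte and platelet genes, 6 fell and 0 rose, or 42.9% lower beside 17.3% of all genes tested. Their median was -1.38, with summed levels of 3708 and 3462 against 1239 and 1740. Of those that did not pass, Itga2b (-1.19), Gp1ba (-0.28) and Nfe2 (0.58) were among the most abundant. Gp9 and Treml1 were at 0 in Taf4a-/- 1, and the number of lower genes rose or fell with the library left out. With single libraries left out, the log2 difference ran from -2.42 to -1.47 for Gp5 and from -1.98 to -1.19 for Rab27b. Of 15 pluripotency genes, 12 rose, or 80.0% beside 11.3% of all genes tested, led by Esrrb (3.48), Dppa3 (3.36), Fgf4 (3.25) and Dppa5a (3.21). The list had a median of 2.76 and summed levels of 7971 and 5564 against 21717 and 24672. None of its genes was at 0 in a library. Tdgf1 (1.91), Tcfcp2l1 (0.16) and Klf4 (-0.07) did not pass. These lists moved with the comparison in which Pecam1, Eng, Emcn and Tek were measured, and their part in those values was not tested.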

How the data were processed

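Messenger RNA of 4 libraries (2 WT, 2 Taf4a-/-) was sequenced. Per the submitters' processing notes, CASAVA 1.8, TopHat 1.3.3, HTSeq 0.5.3p1 and DESeq were used with mm9. The authors deposited, per gene, read counts divided by a size factor for each library (normalized counts, written with decimal commas). For all 4 libraries 100% of the values came out as whole reads within 0.01 read, so that depths of 21732746 to 27733034 reads could be recovered. The floor was 3 reads.

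From these values, log2(normalized count + 1) of 16926 genes (mean of 10 or more over the libraries) was compared in R 4.3.3 by limma 3.58.1 using lmFit and trended eBayes, without a block and with Benjamini-Hochberg adjustment. On this scale, changes of weakly expressed genes are understated. The test was tried on simulated data. Exon lengths and loci came from the NCBIM37 annotation, and promoter windows from RefSeq (GRCm38.p6).

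Members and gene lists were chosen with earlier results of these data known. From each list the called genes with the largest differences and the most abundant of the others were named; other genes, such as Vegfa, Svep1, Cldn5, Jup and Tmem88, and the ratios were chosen after their values were seen. Tspan18, on more than 1 row, and Ccl21a and Spi1, not found, were left out. Sele, Selp, Bmx and Palmd were under the filter. Replicate numbers name libraries only, since no label pairs them. Alternatives were other pseudocounts, filters, scalings, variance models, thresholds, a block, each library left out, and voom on the recovered reads, chosen after seeing the data. Python 3.11.15 with matplotlib 3.10.9 drew the figures.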

Additional observations from a re-analysis of the deposited data

How the results depend on the processing

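With 2 libraries per genotype, precision was limited by the spread between libraries more than by depth. None of the 10 endothelial genes was called higher under any alternative, and none was called lower except without Taf4a-/- replicate 2, where 3 were (Emcn, Eng and Tek). A lone library left in a genotype is assumed to vary like the other genotype. The median log2 difference of the 10 genes ran from -0.65 to 0.09 with single libraries left out, and from -0.27 to -0.21 otherwise. Quantile normalization put the median of all genes at 0.11, and the Esam difference at 0.038, turning its sign. Leaving out single libraries turned the sign of Cdh5 (-0.70 to 0.47), Esam (-0.71 to 0.30), Flt1 (-0.72 to 0.0022), Tie1 (-0.46 to 0.84), Pecam1 (-0.28 to 0.46) and Sox18 (-0.65 to 0.95). None of these differences was called. Signs also turned for genes of the lists that did not pass with all 4 libraries: Nrp2 (-0.34 to 0.11), Ctnnd1 (-0.051 to 0.15), Jup (-0.12 to 0.047), Egfl7 (-0.37 to 0.21), Sox7 (-0.80 to 0.088), Erg (-0.93 to 0.092), Notch1 (-0.21 to 0.35), Ephb4 (-0.0054 to 0.38), Pdpn (-0.94 to 0.11), Aplnr (-0.48 to 0.85), Plvap (-0.48 to 0.74), Ece1 (-0.13 to 0.22), Des (-1.06 to 0.27), Nfe2 (-0.18 to 1.34), Tcfcp2l1 (-0.16 to 0.48) and Klf4 (-0.49 to 0.35). Jup turned to 0.022 with equal totals and 0.022 with voom, Klf4 to 0.027 with quantile normalization and 0.0069 with voom, and Gp1ba to 0.061 with quantile normalization. Over all genes, 1906 were called higher and 2928 lower, against 856 and 1741 without the variance trend and 331 and 1119 at an adjusted p under 0.01. Leaving out single libraries gave 600 to 2558 higher and 1453 to 3106 lower. Of the other differences and list counts, 1646 stayed the same. For a difference this means direction and side of the threshold, and for a list count an equal or similar number. Among the differences, 192 no longer passed, 25 newly passed and 39 changed sign, and 53 list counts moved. What made these results change was not tested. With the replicate number as a block, 1536 genes were called higher and 2657 lower, and 0 of the 10 were called. Deviations of same-numbered libraries had a correlation of 0.0118, so that no pairing was read from the numbers. Of the genes refitted singly, Mllt4, Cdh2, Prox1, Ecscr, Nfatc1, Nr2f2 and Vwf lost their call with the block, and Mcam and Tdgf1 gained one. The count tests edgeR and DESeq2, planned on recovered reads, were not run, and voom on those reads called 2134 genes higher and 2580 lower.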

Other observations

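The endocardium is the endothelium of the heart. Of its 11 listed genes, 5 fell in the Taf4a-/- libraries (median log2 difference -0.74), or 45.5% beside 17.3% of all genes tested. Npr3, the natriuretic peptide clearance receptor, had 3317 and 3326 normalized counts in WT 1 and 2 and 643 and 680 in Taf4a-/- 1 and 2 (log2 difference -2.33, SE 0.12, adjusted p = 0.000556 from limma). Its libraries of a genotype lay close together, unlike those of most of the 10 endothelial genes. Ednrb, an endothelin receptor, had a log2 difference of -2.14 (adjusted p = 0.00164 from limma), and Hapln1, a matrix protein of the cardiac cushions, one of -1.65, while Gata4 (-0.63) and Nfatc1 (-0.59) were the others. The call of Nfatc1 was lost with equal totals, quantile normalization, voom, the block, no filter or no variance trend. It was also lost in each fit without 1 library. Gata4 lost its call without Taf4a-/- 1, without Taf4a-/- 2 and without WT 2, and Hapln1 without WT 1. Summed levels of the list were 20329 and 20853 against 12182 and 13617. The most abundant genes that did not pass were Ece1 (0.04), Plvap (0.13), Bmp6 (-0.74) and Edn1 (-0.47). The count of lower genes was 3 without Taf4a-/- 2 or WT 1, and the calls of Npr3 and Ednrb held without each library.

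Mural cells (pericytes and smooth muscle) surround endothelial tubes. Of 13 of their genes 6 were lower and 1 higher, or 46.2% and 7.69% beside 17.3% and 11.3% of all genes tested. The lower genes had log2 differences of -3.88 for the smooth muscle myosin Myh11 and -3.27 for the pericyte proteoglycan Cspg4. Those of the channel subunits Kcnj8 and Abcc9 were -2.19 and -1.83, and Anpep (-1.48) and Acta2 (-1.14) were the others. Rgs5, a further pericyte marker, was higher by 1.17 (adjusted p = 0.0341 from limma), with 2658 and 1351 against 4105 and 4416 normalized counts. The abundant Tagln (-0.77), Notch3 (-0.15), Pdgfrb (-0.53) and Des (-0.39) did not pass. Myh11 had 71.9 and 340 normalized counts in WT 1 and 2 and 16.6 and 5.53 in Taf4a-/- 1 and 2. Without WT 2 the calls of Myh11, Cspg4 and Kcnj8 were lost and Pdgfrb gained one. Kcnj8 also lost its call without WT 1, and Acta2 without either Taf4a-/- library. The calls of Abcc9 and Anpep held without each library. In the megakaryocyte and platelet list Pf4, the platelet chemokine, had 418 and 345 normalized counts in WT and 14.7 and 17.7 in the Taf4a-/- libraries (log2 difference -4.48, adjusted p = 0.000976 from limma), and Ppbp, Gp5, Rab27b, Itgb3 and Vwf were also lower. Vwf is made by endothelium too and stood in both lists.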
